A study of Mus musculus with 6 samples.

Results

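Contractile actin cytoskeleton genes were examined in RNA sequencing libraries of mouse T cells grown together with ID8, an ovarian cancer line that derives from mouse ovarian surface epithelium. The set was defined by gene symbol and holds 9 of the 54532 genes of the deposited table: Acta2, Tagln, Cnn1, Cnn2, Myl9, Tpm1, Tpm2, Cald1 and Actn1. All 9 symbols were found, each on 1 gene. In 3 libraries (cisplatin, titled CIS) the tumour cells had first received cisplatin, for which the sample labels give 40 µM. In the other 3 libraries (control, titled WT) the labels give PBS in place of cisplatin, and no genotype is stated for either group. The T cells of both groups were isolated from the spleens of C57BL/6 mice with a pan T cell kit, which depletes other cells, kept in medium with IL-2 and pre-activated with anti-CD3/CD28 beads. The study calls the 3 libraries of a group biological replicates and independent samples, without saying whether they came from separate mice or cultures, and the p-values measure the spread between these libraries.

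Contractile force in non-muscle and smooth muscle cells comes from myosin II pulling on actin filaments. α-Actinin bundles the filaments into stress fibres and anchors them at adhesions, tropomyosin lies along them, and caldesmon and calponin bind them and restrain the myosin motor. The smooth muscle forms of these proteins (smooth muscle α-actin, transgelin, calponin 1, the myosin light chain Myl9 and β-tropomyosin) mark smooth muscle, pericytes and myofibroblasts. Many genes of this group are targets of serum response factor (SRF), which binds a short DNA element called the CArG box together with myocardin-related cofactors. Lymphocytes also build an actomyosin cortex, mainly from non-muscle isoforms.

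The members split by level. Cnn2, Actn1, Tpm1 and Cald1 had a mean of at least 0.5 FPKM (fragments scaled to gene length and to the reads of the library) over the 6 libraries and could be tested between groups. Acta2, Tagln, Tpm2, Myl9 and Cnn1, the forms that mark smooth muscle, lay below that level in each of the 6 libraries, the highest value being 0.487 FPKM for Acta2 in control replicate 2. Among all 54532 genes ordered by mean FPKM in the control libraries, Cnn2 stood at rank 290, Actn1 at 524, Tpm1 at 992 and Cald1 at 1070, while the 5 low members stood between rank 16908 and rank 24164. In the cisplatin libraries Cnn2 stood at rank 263, Actn1 at 813, Tpm1 at 3253 and Cald1 at 6159.

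The proximal promoter sequences of the members were searched for the CArG box, a CC and a GG separated by a run of 6 A or T letters, in the 250 bases before the gene start as RefSeq annotates it on GRCm38 (p6). The element reads the same on both strands. Promoters of 8 of the 9 members were in the RefSeq table. An exact match was present in Cnn2 and in Myl9, and in 1.47% of all 32851 promoters of the table. A match with at most 1 mismatch, exact matches included, was present in 18.6% of all promoters. Among the members Cnn2 and Myl9 count here through their exact match, and Acta2, Myl9, Tpm1 and Cald1 held a match with 1 mismatch. Cald1 has 2 promoters in the RefSeq table, and its match lies in promoter 1. Promoter 2 (chr6:34709194-34709493) held 0 matches of either kind, and which of them was in use was not tested. The windows below show the exact matches of a member with a high level (Cnn2) and of a member with a level near 0 (Myl9), and a match with 1 mismatch in Acta2 and in Cald1. Capitals mark the 10 bases of the match, and each sequence is given on the strand of its gene. The Cnn2 window is chr10:79988519-79988578 on the plus strand, the Myl9 window is chr2:156775278-156775337 on the plus strand, the Acta2 window is chr19:34255423-34255482 on the minus strand and the Cald1 window is chr6:34598276-34598335 on the plus strand. All 4 lie upstream of the gene as the table annotates it.
Cnn2: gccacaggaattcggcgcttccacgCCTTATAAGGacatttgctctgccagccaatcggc
Myl9: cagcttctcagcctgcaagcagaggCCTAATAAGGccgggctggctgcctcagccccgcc
Acta2: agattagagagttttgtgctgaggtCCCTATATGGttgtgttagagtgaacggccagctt
Cald1: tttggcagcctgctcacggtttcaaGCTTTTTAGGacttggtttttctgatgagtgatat
The match begins 56 bases before the start in Cnn2, 161 in Myl9, 84 in Acta2 and 203 in Cald1 (promoter 1). These matches are a description of the letters only. The members with an exact match were thus found at both ends of the range of levels.

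Cald1 and Tpm1 were lower in T-cell libraries with cisplatin-pretreated ID8 cells, Actn1 was lower by a smaller amount, and Cnn2 was slightly higher. Values of log2(FPKM + 0.1) entered a limma model of all 15874 genes that passed the same level of 0.5 FPKM, and p-values were adjusted over all of them by the Benjamini-Hochberg method. A gene was called where the adjusted p-value was under 0.05 and the groups differed 2-fold or more. By this rule 2 of the 4 tested members, Cald1 and Tpm1, were called lower, where 12.8% of all tested genes were called lower, and none of the 4 was called higher, where 4.11% of all tested genes were (16.9% in either direction). For all 4 the values of the groups did not overlap, as for 64.2% of all tested genes. Without the fold-change minimum 3 of the 4 were lower, against 29.0% of all tested genes, and 1 was higher, against 27.5%. The median log2 fold change of the 4 was -1.0, and that of all tested genes 0.03. In bulk RNA of this kind, fewer cells of a type and less RNA in each cell cannot be told apart.

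Cald1 encodes caldesmon, an actin-binding protein that inhibits myosin and stabilises filaments. It lies on chr6:34598500-34775473 of GRCm38 on the plus strand. Its values were 46.8, 45.1 and 45.0 FPKM in control replicates 1 to 3 and 8.36, 7.65 and 8.38 FPKM in cisplatin replicates 1 to 3. The groups were far apart relative to the spread within each. On the log2 scale the difference was -2.47 with a standard error of 0.047 (limma, adjusted p = 1.4e-07), or 5.56-fold lower. These values rest on 16272 to 16923 reads per control library and 3054 to 3271 per cisplatin library, counted back from the FPKM.

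Tpm1 encodes α-tropomyosin, with smooth muscle, striated muscle and cytoskeletal isoforms that a gene-level table does not separate. It lies on chr9:67022590-67049406 on the minus strand. Its values were 47.4, 48.3 and 48.1 FPKM in the control and 16.4, 17.4 and 17.5 FPKM in the cisplatin libraries, and the groups did not overlap. The log2 difference was -1.48 with a standard error of 0.036 (limma, adjusted p = 3.1e-07), or 2.79-fold lower.

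Actn1 encodes α-actinin 1, a non-muscle filament crosslinker found in stress fibres, adhesions and the lymphocyte cortex. It lies on chr12:80167547-80260371 on the minus strand. The 3 control libraries had 78.4, 78.7 and 74.8 FPKM and the 3 cisplatin libraries 53.9, 54.2 and 54.6 FPKM. All cisplatin values lay below all control values, but the fold stayed under the minimum for a call. The log2 difference was -0.51 with a standard error of 0.031 (limma, adjusted p = 1.5e-05). Antisense genes on the opposite strand share 8.15% of the exon bases of Actn1, and each of them averaged under 1 FPKM in both groups.

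Cnn2 encodes calponin 2, the calponin of leukocytes, fibroblasts and other non-muscle cells. It lies on chr10:79988584-79996062 on the plus strand. It was the most abundant member per length, with 123, 127 and 123 FPKM in the control and 134, 140 and 141 FPKM in the cisplatin libraries. The cisplatin libraries were all above the control libraries by a narrow margin. The log2 difference was 0.16 with a standard error of 0.031 (95% interval 0.08 to 0.23, adjusted p = 0.0051 from limma), and it was -0.41 when each library was centred on 20 T cell markers. That scaling assumes that the T cell markers did not change, and it moved the median log2 fold change of all tested genes from 0.03 to -0.54. Relative to the median of all tested genes, Cnn2 stood at 0.13, Actn1 at -0.54, Tpm1 at -1.51 and Cald1 at -2.5 on the log2 scale. The centring shifts every gene of a library by the same amount, so it cannot change these differences from the median. With quantile normalization Cnn2 stood at -0.04 relative to that median. With the centring Actn1 had a log2 fold change of -1.08 and also passed the fold-change minimum, so 3 of the 4 tested members were then called lower, where 23.3% of all tested genes were.

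**Figure D1:**
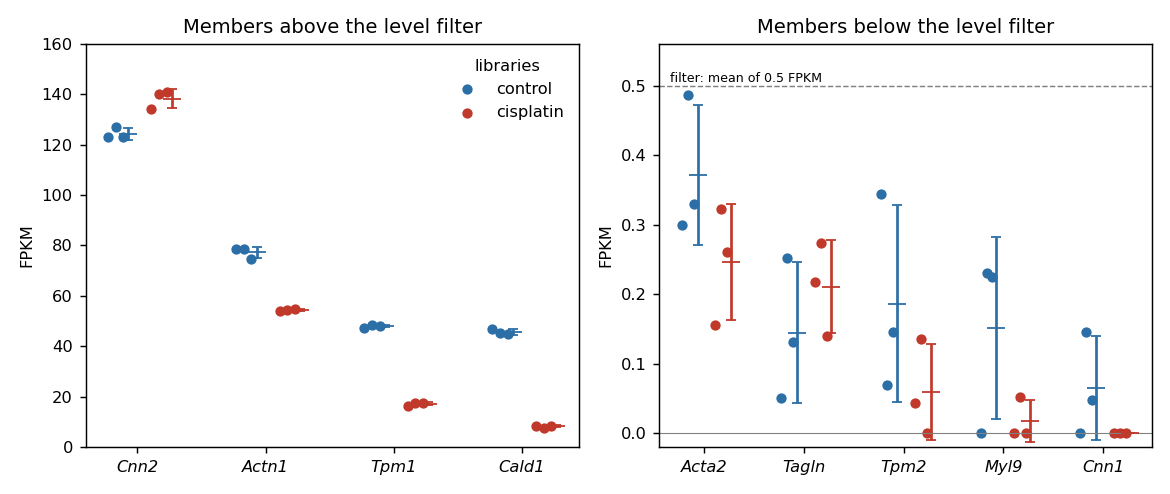
FPKM of the 9 members in each of the 6 libraries (points; 3 control, 3 cisplatin), with the group mean as a bar and the SD as whiskers. On the left Cald1, Tpm1 and Actn1 are lower and Cnn2 slightly higher in the cisplatin libraries. On the right, on a much smaller scale, the 5 low members overlap between groups and all lie under 0.5 FPKM (dashed line).

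The 5 members that mark smooth muscle were near the limit of detection in both groups. Their FPKM summed to 0.693, 1.18 and 0.878 in control replicates 1 to 3 and to 0.416, 0.782 and 0.400 in cisplatin replicates 1 to 3, from 49 to 67 reads and 24 to 52 reads per library. For comparison, Cnn2 alone had 9061 to 11413 reads per library. The sums overlap between the groups. A count of 0 in a library allows up to 3 reads, and such limits cover counting error only.

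Acta2, which encodes smooth muscle α-actin and lies on chr19:34241090-34255336, had 0.299, 0.487 and 0.329 FPKM in the control and 0.156, 0.322 and 0.260 FPKM in the cisplatin libraries. Tagln, the gene of transgelin (SM22α) on chr9:45929619-45936058, had 0.0503, 0.252 and 0.131 FPKM in the control and 0.218, 0.273 and 0.140 FPKM in the cisplatin libraries. Both overlap between groups. For Tagln, 67.9% of the exon bases are shared with exons of Pcsk7 and Gm48529 on the opposite strand. Pcsk7, a proprotein convertase gene, had 7.83 FPKM in the control and 9.50 FPKM in the cisplatin libraries on average. The sources used here do not give the strand setting or how reads in overlaps were treated, so the level of Tagln is uncertain.

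Tpm2, the gene of β-tropomyosin on chr4:43514711-43523765, had 30, 6 and 13 reads in the control and 4, 13 and 0 reads in the cisplatin libraries. Myl9, the regulatory light chain of smooth muscle and non-muscle myosin on chr2:156775420-156781658, had 0, 8 and 8 reads in the control and 0, 2 and 0 in the cisplatin libraries. Cnn1, the calponin of smooth muscle on chr9:22099216-22109630, had 0, 12 and 4 reads in the control libraries and 0 in each cisplatin library, which allows up to 0.0339 FPKM there. For each of the 3 genes at least 1 control library was as low as a cisplatin library or lower.

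When the level filter was removed, none of the 5 low members passed by limma. Their adjusted p-values were 0.48 for Acta2, 0.55 for Tagln, 0.32 for Tpm2, 0.27 for Myl9 and 0.25 for Cnn1, and 0 of them had an unadjusted p under 0.05. The 95% interval of the log2 fold change ran from -1.32 to 0.41 for Acta2 and from -0.61 to 1.42 for Tagln. It ran from -1.99 to 0.35 for Tpm2, from -2.17 to 0.29 for Myl9 and from -1.41 to 0.17 for Cnn1. With limma's voom on the rebuilt reads, Acta2, Tagln and Tpm2 had enough reads to be tested, and 0 of the 3 passed. Of these, Tpm2 had an unadjusted p of 0.036 (adjusted p = 0.062 from limma), with a log2 fold change of -2.17 (95% interval -4.19 to -0.15). No change of these genes thus passed after adjustment at this depth, and the intervals do not show that the groups were equal.

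Each low member has an abundant non-muscle relative in the same libraries. The transgelins were 99.8% ± 0.127 (SD, n = 3) Tagln2 by summed FPKM in the control and 99.5% ± 0.202 (SD, n = 3) in the cisplatin libraries. Acta2 made up 0.0249% ± 0.00628 (SD, n = 3) of the summed FPKM of the 6 actin genes in the control libraries, and 0.0194% ± 0.00656 (SD, n = 3) in the cisplatin libraries. The rest was nearly all Actb and Actg1, the cytoplasmic actins, at 1036 and 454 FPKM in the control and 927 and 338 FPKM in the cisplatin libraries on average. Myl9 made up at most 0.776% of the regulatory light chains in any library, which were mainly Myl12a. Reads can be shared between Actb and Actg1 and between Myl12a and its neighbour Myl12b, which are near-identical in sequence, so the split within each pair is uncertain.

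The make-up of the tropomyosin, calponin and α-actinin families is given by the share of each gene in the summed FPKM, as a description with no test of the shares. Tropomyosin transcripts summed to 281 ± 5.14 FPKM (SD, n = 3) in the control and 152 ± 2.10 FPKM (SD, n = 3) in the cisplatin libraries. Tpm1 made up 17.1% ± 0.448 of them in the control and 11.3% ± 0.248 in the cisplatin libraries (SD, n = 3 each). Tpm4, a cytoskeletal tropomyosin, went from 63.0% ± 1.13 to 43.8% ± 0.616, and Tpm3, the cytoskeletal form with the highest level in the cisplatin libraries, from 19.8% ± 0.728 to 44.9% ± 0.350 (SD, n = 3 each). The share of Tpm2 was at most 0.121% in any library. Tpm3 was higher with cisplatin in FPKM as well, with 54.5, 56.7 and 55.9 FPKM in the control and 66.8, 69.0 and 69.3 FPKM in the cisplatin libraries (log2 fold change 0.29, adjusted p = 0.00022 from limma). After the centring on T cell markers no gene of the list of paralogues passed as higher, Tpm3 included. The mean of the T cell markers differed by 0.57, more than the 0.29 of Tpm3, so the log2 fold change of Tpm3 was then negative. In that setting 9 genes of the list passed as lower in place of 8, as did 65.8% of all tested genes.

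Among the calponins, Cnn2 made up 64.5% ± 1.43 of the summed FPKM in the control and 86.5% ± 0.527 in the cisplatin libraries (SD, n = 3 each). The larger change was that of Cnn3, the acidic calponin of non-muscle cells, beside the log2 fold change of 0.16 of Cnn2. Cnn3 had 71.2, 65.1 and 69.0 FPKM in the control and 22, 21.3 and 21.3 FPKM in the cisplatin libraries (log2 fold change -1.66, adjusted p = 3.4e-07 from limma). Among the α-actinins, Actn1 made up 42.0% ± 0.0286 in the control and 48.3% ± 0.368 in the cisplatin libraries, and Actn4, the other non-muscle form, 57.2% ± 0.233 and 50.3% ± 0.433 (SD, n = 3 each). For every share of Tpm1, Tpm3, Tpm4, Cnn2, Cnn3, Actn1 and Actn4 the control and cisplatin libraries did not overlap. The levels of 64.2% of all tested genes did not overlap either. Shares within a family depend on each other, so these are not separate results.

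Ratios of paralogues within a library are not changed by a scaling factor between libraries, apart from the pseudocount, and 4 of the 13 pairs listed had both genes above the level filter. The log2 ratio of Cnn2 to Cnn3 was 0.78, 0.96 and 0.83 in the control and 2.61, 2.71 and 2.72 in the cisplatin libraries, a difference of 1.82. The log2 ratio of Tpm1 to Tpm3 was -0.20, -0.23 and -0.22 in the control and -2.02, -1.98 and -1.98 in the cisplatin libraries, a difference of -1.78. The log2 ratio of Actn1 to Actn4 was -0.45, -0.44 and -0.45 in the control and -0.04, -0.07 and -0.08 in the cisplatin libraries, a difference of 0.38. Each of these 3 had p = 0.1 in a two-sided exact permutation test of 3 libraries against 3, the smallest p the design allows (adjusted over the 4 pairs, 0.133). With 3 libraries a group no pair could pass. The log2 ratio of Tpm1 to Tpm4 was -1.88 ± 0.0635 in the control and -1.95 ± 0.0517 in the cisplatin libraries (SD, n = 3 each, two-sided exact permutation p = 0.2), and the groups overlapped, with differences from -0.10 to -0.04 when 1 library was left out.

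**Figure D2:**
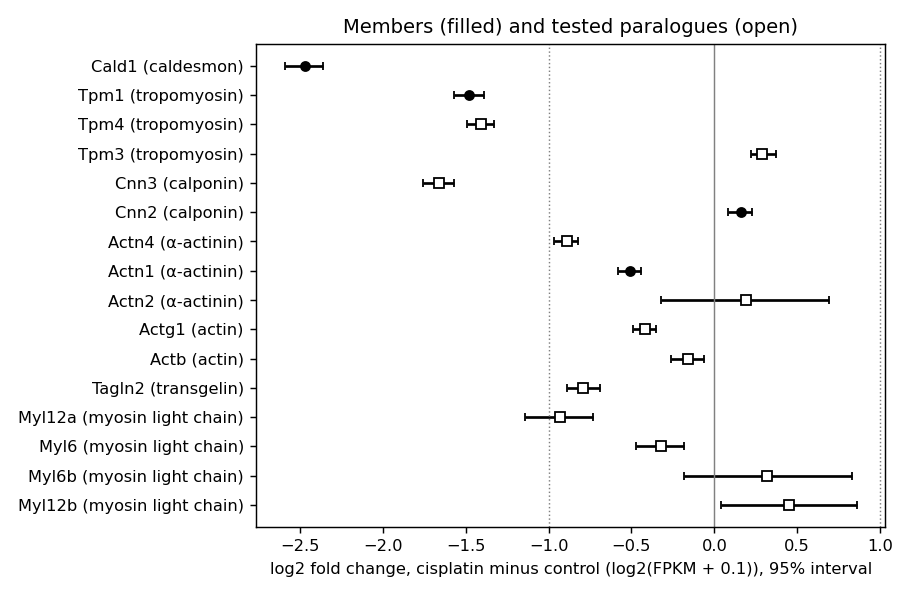
Log2 fold change (cisplatin minus control, on log2(FPKM + 0.1)) of the 4 tested members (filled) and 12 tested paralogues (open), with 95% intervals from limma, and dotted lines at the fold-change minimum. Cald1, Cnn3, Tpm1 and Tpm4 lie below -1, and Cnn2 and Tpm3 just above 0.

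**Figure D3:**
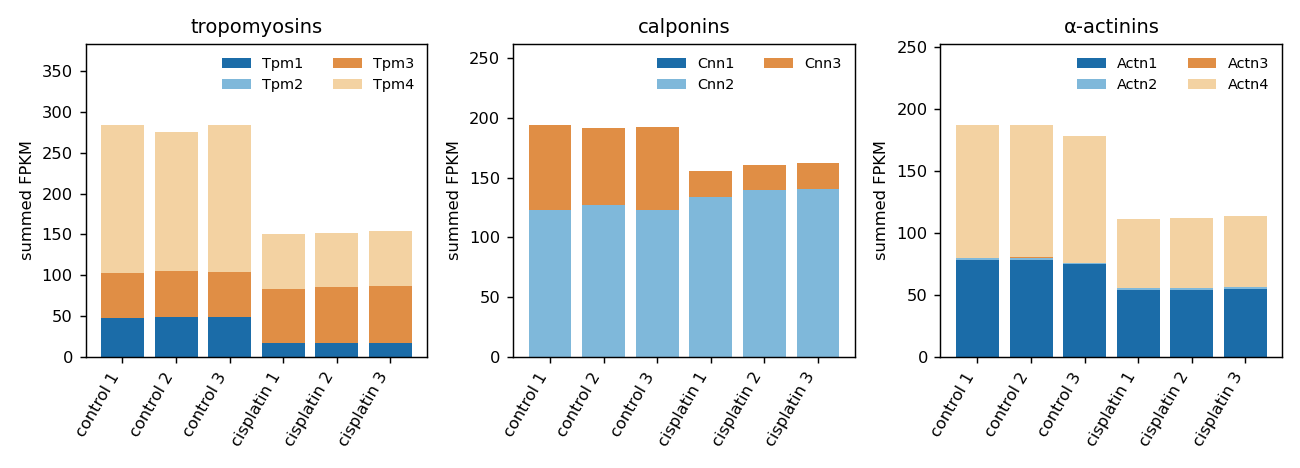
Summed FPKM of the tropomyosin, calponin and α-actinin genes in each library, from 0, with each gene as a stacked part. Tropomyosins sum to 281 FPKM on average in the control and 152 FPKM in the cisplatin libraries, with Tpm3 at 19.8% and 44.9%, and Tpm2, Cnn1 and Actn3 too small to see.

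Other genes of the contractile and actin system were counted in lists, beside the 29.0% of all tested genes that passed as lower and the 27.5% that passed as higher. Of the 16 genes for myosin II and its regulators, 12 were tested, and 9 passed the limma test as lower (median log2 fold change -0.44). The largest falls by the rule for named genes were those of Smtn, the gene of smoothelin, an actin-binding protein of contractile smooth muscle (20.4 ± 1.05 to 3.54 ± 0.287 FPKM, log2 fold change -2.49), Rhob (log2 fold change -2.35) and Rhoc (log2 fold change -2.27), small GTPases that drive stress fibre assembly. Myh9, the non-muscle myosin heavy chain of lymphocytes, had a log2 fold change of -0.16. Myh11 and Lmod1, which mark smooth muscle, were below the level filter.

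Of the 29 focal adhesion and stress fibre genes, 26 were tested. In limma 20 passed as lower and 5 as higher, of which 13 and 2 also reached the fold-change minimum (median log2 fold change -1.20). Of all tested genes 12.8% were called lower and 4.11% higher. The largest falls were those of Fblim1, which links filamin to adhesions (30.7 ± 1.59 to 3.33 ± 0.131 FPKM, SD, n = 3 each), Fermt2, the gene of the integrin activator kindlin-2 (11.5 ± 0.798 to 1.28 ± 0.0946 FPKM, SD, n = 3 each), and Parva, the gene of α-parvin (12.3 ± 0.264 to 2.06 ± 0.0926 FPKM, SD, n = 3 each). The leukocyte counterpart of kindlin-2, kindlin-3 (Fermt3), is on another list and was higher, with 86.9 ± 4.5 FPKM in the control and 142 ± 1.84 FPKM in the cisplatin libraries (SD, n = 3 each). The 5 focal adhesion genes that passed as higher were Tln1, Vasp, Pdlim1, Tgfb1i1 and Synpo2, of which Tgfb1i1 and Synpo2 averaged under 2 FPKM in both groups.

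Of the 20 leukocyte actin regulators, 18 passed the limma test as higher and 1, Arpc1b, as lower, and the median log2 fold change was 0.58. The largest rises were those of Fermt3 (log2 fold change 0.71), Dock8, an exchange factor of migrating lymphocytes (log2 fold change 0.70), and Was, the Wiskott-Aldrich syndrome protein (log2 fold change 0.70). With the libraries centred on the T cell markers this list went both ways, with 7 higher and 5 lower and a median of 0.02, where 4.83% of all tested genes passed as higher and 65.8% as lower. Of the 22 actin filament turnover genes, 8 (36.4%) were lower and 5 (22.7%) higher, near the shares of all tested genes, with a median of -0.04, and Gsn, the gene of the severing protein gelsolin, fell most (164 ± 4.13 to 43.3 ± 0.834 FPKM, log2 fold change -1.92), before Cfl2, a cofilin (log2 fold change -0.90), and Capg, a capping protein (log2 fold change -0.81). With the centring, which shifts every gene of a library by the same amount, all 22 of the turnover genes passed as lower, as did 65.8% of all tested genes.

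Transcripts of SRF and its cofactors went both ways. Srf had 21.8 ± 1.05 FPKM in the control and 23.1 ± 0.631 FPKM in the cisplatin libraries (SD, n = 3 each, adjusted p = 0.18 from limma). Of the 6 tested genes of this list 3 passed the limma test as higher and 1 as lower. Elk4, an SRF partner of the ternary complex factor family, had a log2 fold change of 0.58. Of the myocardin-related cofactors, Mkl1 had a log2 fold change of 0.48 and Mkl2 of -0.46. After the centring on T cell markers the list held 4 lower and 0 higher genes by limma, and 0 higher at an unadjusted p under 0.05, where 65.8% of all tested genes passed as lower. Myocd, the cofactor of smooth muscle and heart, was below the level filter.

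**Figure D4:**
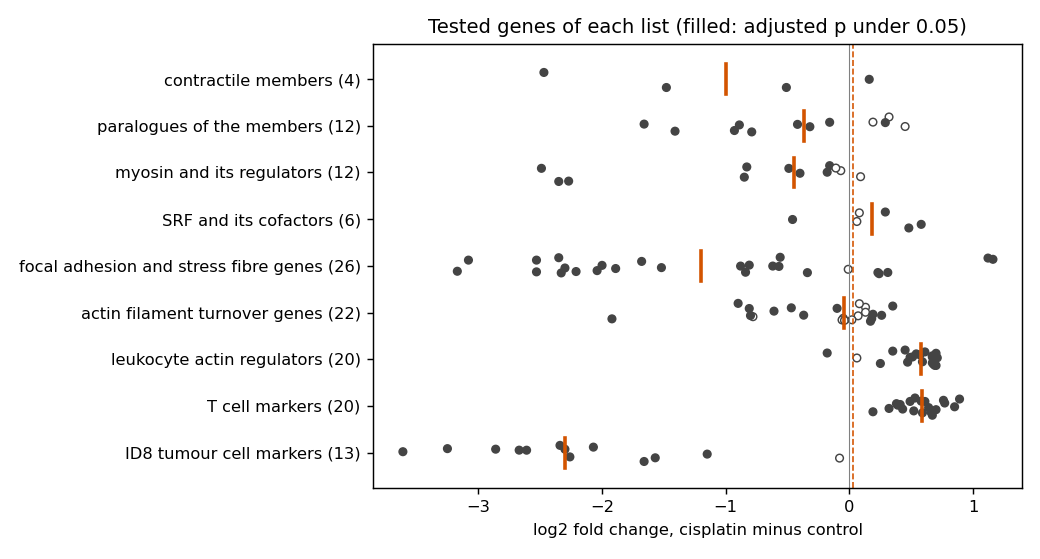
Log2 fold change (cisplatin minus control) of each tested gene of 9 lists, with the number tested in brackets, filled where the adjusted p-value from limma was under 0.05. Orange bars are list medians, from -2.30 (ID8 tumour cell markers) to 0.58 (T cell markers, leukocyte actin regulators), and the dashed line is the median of all tested genes, 0.03.

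Markers of the cell types that the libraries could hold moved with the groups. All 20 T cell markers passed the level filter and were higher in the cisplatin libraries, where 27.5% of all tested genes passed as higher. Their levels summed to 1777 to 1884 FPKM in the control and 2780 to 2848 FPKM in the cisplatin libraries. The most abundant of them were Tcf7, at 318 ± 5.02 and 501 ± 9.21 FPKM, and Trbc2, at 288 ± 30.9 and 487 ± 20.3 FPKM (SD, n = 3 each). Of the 15 ID8 tumour cell markers, 13 were tested and 12 were called lower, where 12.8% of all tested genes were. Epcam was not called (log2 fold change -0.08), and Krt7 and Igfbp5 were below the level filter. The 15 markers summed to 1527 to 1597 FPKM in the control and 225 to 232 FPKM in the cisplatin libraries. Krt19, a keratin of simple epithelia and the most abundant of them, went from 646 ± 18.1 to 52.9 ± 1.46 FPKM, and Sparc, a matrix protein, from 202 ± 4.27 to 27.8 ± 1.14 FPKM (SD, n = 3 each). The fall of Cald1, Tpm1 and Actn1 thus went together with a fall of the ID8 markers, and the part of the ID8 markers in the result was not tested.

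Within each library, the members were also set against the mean log2(FPKM + 0.1) of the 13 tested ID8 markers, which differed by -2.19 between the groups. Cald1 stood at -0.05, -0.03 and -0.04 relative to that mean in the control and at -0.33, -0.38 and -0.27 in the cisplatin libraries, a difference of -0.29. Cald1 was the member whose change was closest to that of the ID8 markers. Tpm1 stood 0.71 higher relative to the ID8 markers in the cisplatin than in the control libraries, Actn1 1.68 higher and Cnn2 2.34 higher. Relative to the mean of the 20 T cell markers, which differed by 0.57, the differences between cisplatin and control were -3.04 for Cald1, -2.05 for Tpm1, -1.08 for Actn1 and -0.41 for Cnn2. The 4 tested members therefore lay between the changes of these lists, with the exception of Cald1, which fell slightly more than the ID8 mean.

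**Figure D5:**
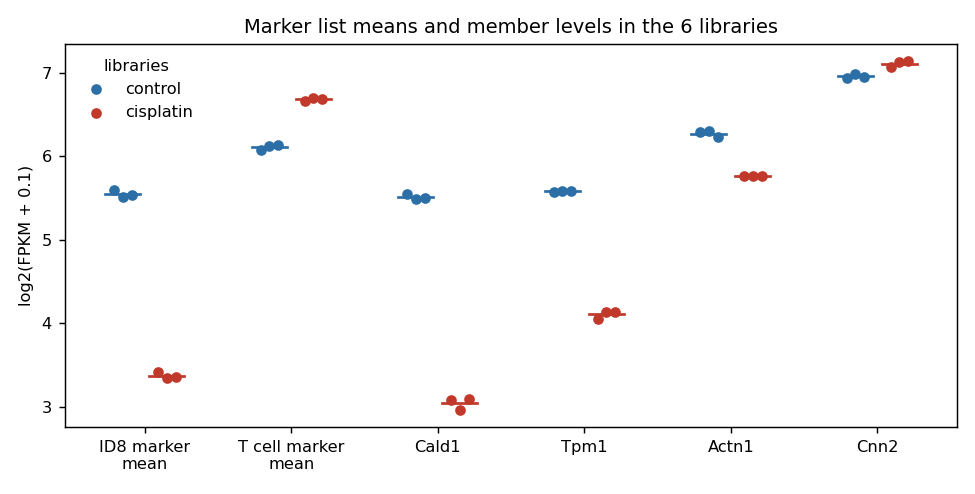
Mean log2(FPKM + 0.1) of the 13 tested ID8 markers and of the 20 T cell markers, and the level of the 4 tested members, in the 6 libraries (points) with group means (bars). The ID8 marker mean differs by -2.19 and the T cell marker mean by 0.57 between cisplatin and control, and Cald1 shows the gap most like that of the ID8 markers.

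Other cell types that express contractile genes were checked in the same way. Of the 14 fibroblast and mural cell markers, 10 were below the level filter, and Col3a1 was at 0 in every library. The most abundant were Dcn, at 39.2 ± 1.03 FPKM in the control and 7.51 ± 0.212 FPKM in the cisplatin libraries, and Col1a1, at 2.23 ± 0.386 and 1.31 ± 0.150 FPKM (SD, n = 3 each), and the list summed to 44.3 to 46.1 FPKM in the control and 11.1 to 11.4 FPKM in the cisplatin libraries. Platelets are rich in tropomyosin, α-actinin and Myl9. The 8 platelet and megakaryocyte markers summed to 92.2 to 122 FPKM in the control and 79.8 to 94.9 FPKM in the cisplatin libraries, which overlap, with Pf4 at 33.0 ± 6.55 and 40.7 ± 4.0 FPKM and Ppbp at 46.3 ± 7.23 and 22.4 ± 1.5 FPKM (SD, n = 3 each), and Gp1bb was at 0 in every library. The 8 endothelial markers summed to 25.5 to 26.1 and 23.0 to 23.6 FPKM, a sum that holds opposite changes. Pecam1, also found on leukocytes, was higher (13.4 ± 0.327 to 20.6 ± 0.468 FPKM), while Esam, an adhesion molecule also found on platelets (9.71 ± 0.287 to 1.51 ± 0.054 FPKM), and Tek (2.12 ± 0.358 to 0.536 ± 0.136 FPKM) were called lower (SD, n = 3 each), the 3 tested genes had a median of -1.81 on the log2 scale, and Cdh5, which defines the type, was below the level filter. Markers of B cells and myeloid cells were also detected, although the pan T cell kit is meant to deplete these cells. The 8 B cell markers were all higher with cisplatin (median log2 fold change 0.60), where 27.5% of all tested genes passed as higher. They summed to 1649 to 1732 FPKM in the control and 3560 to 3642 FPKM in the cisplatin libraries. Most of each sum was Ighm, at 1433 ± 38.0 and 3220 ± 46.7 FPKM, while Cd79a had 92.6 ± 4.77 and 121 ± 7.66 FPKM (SD, n = 3 each). A sum led by 1 gene does not measure B cells against T cells. Of the 10 myeloid markers 7 were higher and 2 lower (median log2 fold change 1.24), beside 27.5% and 29.0% of all tested genes. They summed to 124 to 130 FPKM in the control and 159 to 182 FPKM in the cisplatin libraries. Lyz2 had 30.8 ± 1.81 and 89.7 ± 9.31 FPKM and Mpeg1 60.1 ± 0.698 and 34.3 ± 2.21 FPKM (SD, n = 3 each). The median depended on low genes. With a minimum of 5 FPKM, 4 of these markers were tested, and their median was -0.23. At an unadjusted p under 0.05 from limma, 2 of the 4 were lower and 1 higher. The part of any of these cell types in the levels of the members was not tested.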

How the data were processed

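RNA of T cells was sequenced in 3 cisplatin and 3 control libraries, grouped by the treatment in the sample labels. The authors deposited FPKM values per gene and library. The study's methods name LifeScope for alignment and counting, while the submitters' processing notes list fastp, HISAT2 2.0.5 and featureCounts 1.5.0-p3 with mm10. The strand setting and the handling of shared reads are not given in the sources used here. Gene coordinates were the same as in GENCODE M21 (GRCm38) for 53499 of 54409 genes.

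FPKM times gene length was a whole multiple (within 0.1) of 1 read's step for 100% of values above 0, which gave 30606569 to 32169496 reads on genes per library. Levels were tested on log2(FPKM + 0.1), which understates changes of low genes, in limma 3.58.1 (R 4.3.3) over all genes whose mean reached 0.5 FPKM. Exact permutation tests used scipy 1.17.1. The steps were tested on simulated data.

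The members, the 14 gene lists and the tests were chosen with earlier results of these data known. Named genes were the members, their paralogues, the 3 largest changes of each pathway list that reached 5 FPKM in either group and passed at an adjusted p-value of 0.05, and the 2 most abundant markers and those at 0 of each marker list. Myh9, Myh11, Lmod1, Srf, Myocd, Cdh5, Tek, Arpc1b, Epcam, Krt7, Igfbp5 and the 5 higher focal adhesion genes were named after their values were seen. Alternatives were other pseudocounts, filters and scalings, TPM, no trend, voom on the rebuilt reads, leaving out each library and a replicate block. Voom was the only fit run on the rebuilt reads. Libraries of a group differed by more than sampling noise.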

Additional observations from a re-analysis of the deposited data

How the results depend on the processing

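Cald1, Tpm1 and Actn1 kept their direction and an adjusted p-value under 0.05 from limma in all 17 alternatives, with log2 fold changes from -3.04 to -2.35, -2.05 to -1.40 and -1.08 to -0.43. Cnn2 passed in all 17 and was positive in each (up to 0.24 with voom) except after centring on the T cell markers, where it was -0.41. Without 1 library the paralogue differences ranged from 1.78 to 1.87 (Cnn2 to Cnn3), -1.78 to -1.76 (Tpm1 to Tpm3), -0.10 to -0.04 (Tpm1 to Tpm4) and 0.37 to 0.39 (Actn1 to Actn4).

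With the centring, which subtracts 1 amount per library from all genes, 0 paralogues were higher, SRF and its cofactors had 4 lower and 0 higher, focal adhesion genes 1 higher, leukocyte actin regulators 5 lower and 7 higher, and turnover genes 22 lower and 0 higher (limma, with 0 higher at an unadjusted p under 0.05 for each count of 0). Of all tested genes 65.8% then passed as lower and 4.83% as higher. With quantile normalization, 2 paralogues, 1 myosin gene and 5 SRF genes were higher. Of all tested genes 37.1% then passed as higher (median log2 fold change 0.16). With voom, 2 paralogues, 1 myosin gene, 5 SRF genes and 10 turnover genes were higher, beside 31.7% of all tested genes (median 0.1). A minimum of 5 FPKM, with fewer genes tested, left 3 higher focal adhesion genes, beside 37.5% of all tested genes. In the main fit this share was 27.5% and the median 0.03. Leaving out 1 library gave 1 to 2 higher paralogues (2 without cisplatin replicate 2 or control replicate 1) and 0 to 1 higher myosin genes (1 without cisplatin replicate 1). Of all tested genes 23.8%, 25.2% and 25.1% passed as higher in these fits, in that order. For the quantile, voom and left-out-library moves the cause was not tested.

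Libraries with the same replicate number did not deviate together (correlations 0.023, -0.063 and -0.021), so they share only a number. With the replicate block the log2 fold changes of the members were -2.47, -1.48, -0.51 and 0.16, and 2011 genes were called lower in place of 2034. The paired p of the Cnn2 to Cnn3 ratio was 0.25 in an exact permutation test, the smallest that 3 pairs allow.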
